A study of Rattus norvegicus with 6 samples.

Results

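The 10 genes described here act in the storage and release of triglyceride or are abundant in fat cells. They are Adipoq, Plin1, Plin2, Plin5, Fabp4, Lpl, Lipe, Pnpla2, Dgat2 and Angptl4, chosen by symbol, and all 10 were listed among the 30452 rows of the expression table. The table holds RNA-seq of myocardial tissue from wild-type male rats, with 3 sham samples and 3 samples of ischemia/reperfusion (I/R). I/R meant tying the left anterior descending (LAD) artery for 30 min, with the heart taken after 6 h of reperfusion. The sample labels carry the same times for the sham rats. Strain, age and the region of the heart sampled are not given in the sources used here. The comparison asks how the hearts of rats with I/R differed in RNA from those of sham rats.

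Most cells keep spare fatty acids as triglyceride inside lipid droplets, whose surface is coated by perilipins. In the heart the droplets are small and lie close to mitochondria, and fatty acids released from them serve as fuel and as ligands of the peroxisome proliferator-activated receptors (PPARs). The last step of synthesis is carried out by the diacylglycerol acyltransferases Dgat1 and Dgat2. Release starts with adipose triglyceride lipase (Pnpla2) and goes on with hormone-sensitive lipase (Lipe), while lipoprotein lipase (Lpl) supplies fatty acids from circulating lipoproteins. Adipoq (adiponectin) and Plin1 are made mainly by fat cells, and Fabp4 is a fatty acid carrier of fat cells, endothelial cells and macrophages.

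Promoter sequence was at hand for 6 of the 10 genes, in RefSeq's GRCr8 assembly of the rat, as the 250 bases before each of 7 start sites. The build behind the expression table is not given in the sources used here, and no coordinate was taken from it. Each promoter was searched on both strands for AGGTCA, the half-site that nuclear receptors such as the PPARs bind, and for ACGTG, a form of the core that hypoxia-inducible factors bind. Other forms of that core were not searched. The 3 promoters with a match are shown because their genes include the perilipins Plin5 and Plin2, which were called higher after I/R, with the match in capitals. Plin2 (its first start site, chr5:106229019-106229268, minus strand) has a palindrome that holds the ACGTG core on both strands, beginning 67 and 66 bases before the start. Plin5 (chr9:1033285-1033534, minus strand) has 1 AGGTCA, beginning 157 bases before the start. Angptl4 (chr7:15258682-15258931, minus strand) has 1 ACGTG core, read on the other strand as CACGT and beginning 230 bases before the start.
Plin2: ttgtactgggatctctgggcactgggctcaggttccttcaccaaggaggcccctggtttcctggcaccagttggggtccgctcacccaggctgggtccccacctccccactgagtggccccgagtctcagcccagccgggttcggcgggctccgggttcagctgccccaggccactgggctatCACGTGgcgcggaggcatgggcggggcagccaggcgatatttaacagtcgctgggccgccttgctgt
Plin5: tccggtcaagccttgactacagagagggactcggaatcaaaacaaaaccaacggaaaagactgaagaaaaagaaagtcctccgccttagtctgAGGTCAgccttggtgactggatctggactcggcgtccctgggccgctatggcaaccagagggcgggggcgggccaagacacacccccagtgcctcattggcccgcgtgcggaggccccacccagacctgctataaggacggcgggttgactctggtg
Angptl4: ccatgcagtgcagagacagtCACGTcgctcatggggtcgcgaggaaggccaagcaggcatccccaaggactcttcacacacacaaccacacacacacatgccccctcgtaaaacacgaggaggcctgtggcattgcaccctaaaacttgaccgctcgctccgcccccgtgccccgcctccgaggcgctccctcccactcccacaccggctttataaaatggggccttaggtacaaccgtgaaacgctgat
Neither motif was found in the windows of Adipoq, Plin1, Pnpla2 or the second start site of Plin2. Among 33469 rat promoter windows of 250 bases, 14.1% held AGGTCA and 16.6% held ACGTG, so both are common letters. The direct repeat of AGGTCA with 1 base between the copies, the longer form bound by PPARs, was in 0.0508% of the windows and in none of the 7.

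The expression values are FPKM as deposited, that is, fragments per kilobase of gene length relative to library size. Summed FPKM ran from 894902 to 928941 in the sham samples and from 731063 to 825490 in the I/R samples. The 13 mRNAs encoded by mitochondrial DNA took 80.1% to 86.2% of this sum in the sham group and 61.8% to 71.5% in the I/R group, and their part in each rise below was not tested. FPKM do not give the absolute depth. Low values move in steps of 1 fragment, and these put the depth of the I/R libraries at 0.873 to 0.934 of that of sham replicate 1, with the other sham libraries at 1.14 and 1.18. Groups were compared on log2(FPKM + 0.1) with limma, adjusted by Benjamini-Hochberg over all 10942 genes with a mean of at least 0.5 FPKM, and each log2 fold change is on that scale, which understates changes of low genes. An exact permutation test of 3 samples against 3, two-sided, cannot give a p below 0.1. Each limma p-value sets the difference between the groups against the spread within them, moderated over all genes tested. All p-values rest on these 6 samples.

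After I/R, 3 of the 10 genes rose. They were Dgat2, which encodes a triglyceride-forming enzyme, and Plin5 and Plin2, which are among the perilipins found in heart muscle. No member passed the threshold in the other direction in limma, but Fabp4 and Lipe were lower with an unadjusted p under 0.05. Both passed the adjusted threshold when replicate numbers were used as a block, though the study's methods describe no pairing of rats. Adipoq and Plin1 were too low to be tested. Of the 8 genes tested, 5 had a log2 fold change above 0, and their median was 0.24, against 0.29 for all genes tested. Over all genes tested, 25.5% were called higher in I/R and 7.36% lower. The groups did not overlap in 4 of the 8 genes, 3 higher and 1 lower, where 50.1% of all genes tested did not overlap in either direction. Of all calls made, 77.6% were higher in I/R. That share was 56.5% after centring each sample on its median, 48% after quantile normalization and 21.7% after rescaling without the 13 mitochondrial mRNAs.

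Lists of marker genes were counted for the cell types a piece of heart can hold, and their part in the results on the 10 genes was not tested. Of 8 cardiomyocyte markers tested, 7 were called higher, with a summed level of 3440 to 11300 FPKM in sham and 22900 to 33100 FPKM in I/R (median log2 fold change 2.37). Of 5 neutrophil markers, 4 were called higher (13 to 17.8 FPKM in sham, 29.4 to 86.1 FPKM in I/R), and of 7 fibroblast markers, 2 were (420 to 581 FPKM in sham, 605 to 669 FPKM in I/R). Of 8 macrophage markers, 1 was called higher and 2 lower (77.2 to 90.7 FPKM in sham, 97 to 124 FPKM in I/R). Of 8 endothelial markers tested, 0 were called in either direction by limma, 1 higher and 1 lower had an unadjusted p under 0.05, and the summed level was 202 to 287 FPKM in sham and 213 to 256 FPKM in I/R (median 0.074). With other scalings this list changed: 5 of the 8 endothelial markers were called lower after quantile normalization (median −0.90) and 3 after rescaling without the mitochondrial mRNAs (median −0.71), with 0 higher in both, and 1 was called higher with the replicate block. Over all 10942 genes tested, 1559 were called lower after quantile normalization and 2857 after rescaling without the mitochondrial mRNAs. Of 2 red blood cell markers, 0 were called or had an unadjusted p under 0.05 in limma (1060 to 1150 FPKM in sham, 584 to 1670 FPKM in I/R). Sham replicate 1 had the highest summed cardiomyocyte level of the sham group, 11300 FPKM against 3920 and 3440. In whole tissue, fewer cells of a type and less RNA per cell cannot be told apart.

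**Figure D1:**
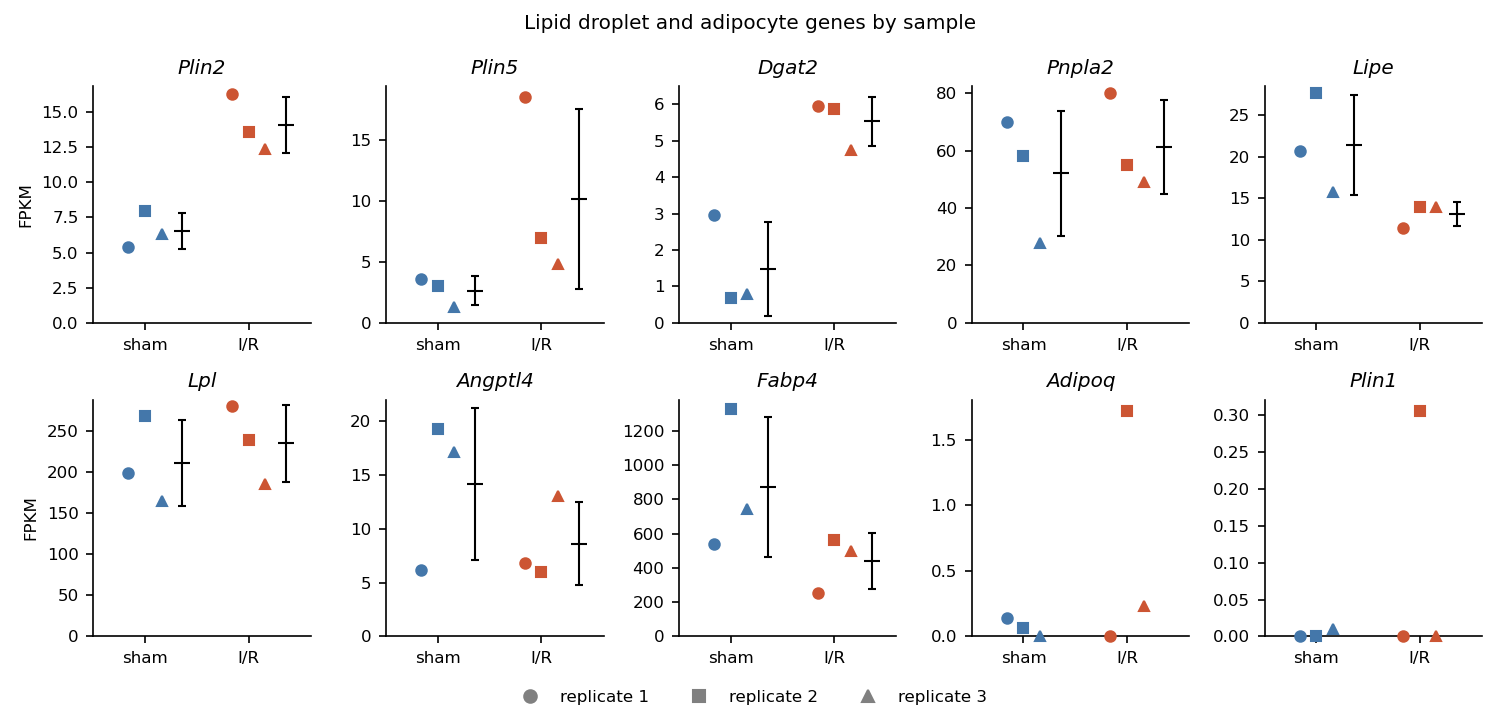
FPKM of each of the 10 genes (vertical axes from 0, a separate scale for each gene) in the 3 sham samples (blue) and the 3 I/R samples (red), with the replicate number as the point's shape and, for the 8 genes tested, the mean and SD in black. Plin2, Plin5 and Dgat2 were higher in every I/R sample than in every sham sample, Lipe was lower, and Adipoq and Plin1 were highest in I/R replicate 2.

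Plin2 (ENSRNOG00000007060) coats droplets in nearly all cells and is degraded when it is not bound to one. In FPKM, sham replicates 1 to 3 measured 5.37, 7.93 and 6.35, and I/R replicates 1 to 3 measured 16.3, 13.6 and 12.4. Every I/R sample was above every sham sample. The mean was 6.55 ± 1.29 FPKM (SD, n = 3) in sham and 14.1 ± 1.99 FPKM (SD, n = 3) in I/R, which is 2.15-fold. The log2 fold change was 1.10 (moderated standard error, SE, 0.24, adjusted p = 0.00847, limma), and 16.3% of all genes tested rose more. It was no longer called after quantile normalization (0.49, adjusted p = 0.0826) or after rescaling without the mitochondrial mRNAs (0.33, adjusted p = 0.384).

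Plin5 (ENSRNOG00000047860) is the perilipin of oxidative tissues, where it ties droplets to mitochondria and holds back Pnpla2. Its values were 3.59, 3.02 and 1.33 FPKM in the sham samples and 18.6, 6.97 and 4.87 FPKM in the I/R samples. The groups did not overlap, and I/R replicate 1 stood well above the other I/R samples. The mean went from 2.65 ± 1.17 FPKM to 10.1 ± 7.38 FPKM (SD, n = 3 each), 3.82-fold, with a log2 fold change of 1.77 (SE 0.49, adjusted p = 0.0223, limma). The call was lost without I/R replicate 1 (1.22, adjusted p = 0.0584), without sham replicate 2 (1.92, adjusted p = 0.0611) and without sham replicate 3 (1.35, adjusted p = 0.0789). It was also lost with no filter on low values (adjusted p = 0.0759), after quantile normalization (1.40, adjusted p = 0.0537) and after rescaling without the mitochondrial mRNAs (1.01, adjusted p = 0.0645).

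Plin1 (ENSRNOG00000015086), the perilipin of fat cells that controls access of lipases to the droplet, was listed at 0 in sham replicates 1 and 2 and in I/R replicates 1 and 3. It had 0.0101 FPKM in sham replicate 3 and 0.306 FPKM in I/R replicate 2. Of the summed FPKM of the 5 perilipins, Plin2 and Plin4 together held the larger part in every sample. Plin2 made up 25.7%, 39.3% and 48.3% in sham replicates 1 to 3 and 24.9%, 40.9% and 40.8% in I/R replicates 1 to 3. The share of Plin5 was 17.2%, 15.0% and 10.2% in sham and 28.3%, 21.0% and 16.0% in I/R, so that the groups overlapped. The sum of the family was 20.9, 20.2 and 13.1 FPKM in sham and 65.6, 33.2 and 30.5 FPKM in I/R, without overlap. Plin3 and Plin4 did not pass the threshold themselves (log2 fold changes 0.60 and 1.18, adjusted p = 0.122 and 0.0752, limma), but Plin4 was called higher with the replicate block (adjusted p = 0.00572) and when rescaled to TPM (1.38, adjusted p = 0.0451).

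**Figure D2:**
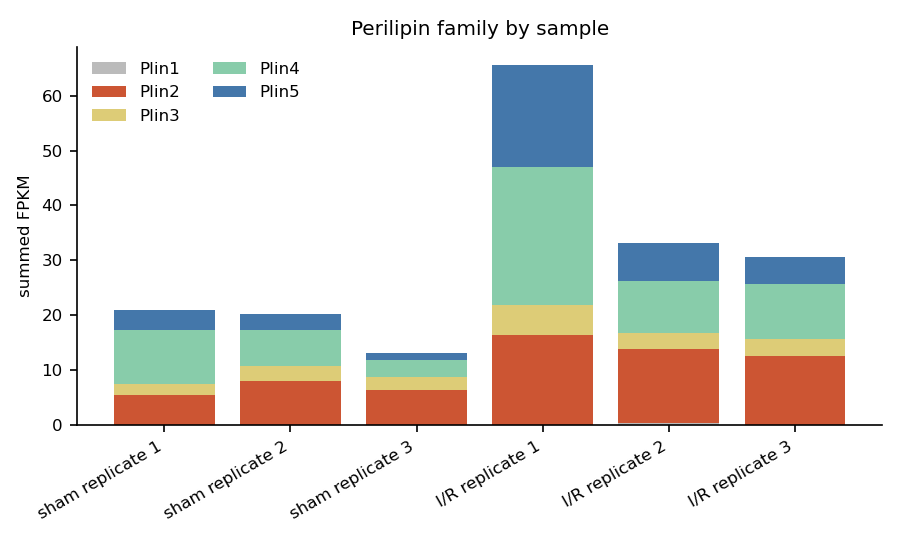
Summed FPKM of the 5 perilipin genes (vertical axis, from 0) in each of the 6 samples, stacked by gene. The sum was 13.1 to 20.9 FPKM in sham and 30.5 to 65.6 FPKM in I/R, with I/R replicate 1 highest, and Plin1 is too small to be seen clearly in any bar.

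Dgat2 (ENSRNOG00000016573) joins the last fatty acid to diacylglycerol, mostly on newly made fatty acids and at the droplet surface. It measured 2.96, 0.682 and 0.807 FPKM in the sham samples and 5.95, 5.88 and 4.75 FPKM in the I/R samples. Sham replicate 1 was the highest sham sample, and still below every I/R sample. The mean was 1.48 ± 1.28 FPKM in sham and 5.53 ± 0.674 FPKM in I/R (SD, n = 3 each), 3.72-fold. The log2 fold change of 2.11 (SE 0.45, adjusted p = 0.00839, limma) was the largest among the 8 members tested, and 2.88% of all genes tested rose more. Dgat2 was called higher under each alternative in which it was tested, with 1.88 (adjusted p = 0.0375) after quantile normalization and 1.37 (adjusted p = 0.0139) after rescaling without the mitochondrial mRNAs. A filter at a mean of 5 FPKM removed it.

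Pnpla2 (ENSRNOG00000069673), which takes the first fatty acid from triglyceride, measured 70.1, 58.0 and 28.0 FPKM in sham and 79.9, 55.1 and 49.0 FPKM in I/R. The groups overlapped widely. Its log2 fold change was 0.31 (SE 0.36, adjusted p = 0.535, limma; p = 0.7, exact permutation test), with means of 52.0 ± 21.7 and 61.3 ± 16.4 FPKM (SD, n = 3 each). Its direction turned to −0.66 after quantile normalization, to −0.48 after rescaling without the mitochondrial mRNAs and to −0.088 without sham replicate 3.

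Lipe (ENSRNOG00000020546), which acts next on diacylglycerol, measured 20.7, 27.7 and 15.7 FPKM in sham and 11.4, 14.0 and 13.9 FPKM in I/R. All 3 I/R samples were below all 3 sham samples. The mean was 21.4 ± 6.05 FPKM in sham and 13.1 ± 1.46 FPKM in I/R (SD, n = 3 each), 0.612-fold. The log2 fold change of −0.67 (SE 0.26) did not pass the threshold (adjusted p = 0.0721, limma; p = 0.1, exact permutation test, the smallest possible). It passed with the replicate block (adjusted p = 0.0441), at a mean of at least 5 FPKM (adjusted p = 0.0460), after median centring (−0.92, adjusted p = 0.0228), after quantile normalization (−1.44, adjusted p = 0.0101) and after rescaling without the mitochondrial mRNAs (−1.45, adjusted p = 0.00265). Rescaled to TPM, Lipe did not pass (−0.48, adjusted p = 0.211, limma). Nor did it pass with any sample left out. There it ran from −0.46 without sham replicate 2 (adjusted p = 0.215) to −0.87 without sham replicate 3 (adjusted p = 0.0559).

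Lpl (ENSRNOG00000012181) is made by heart muscle and works on the wall of the capillaries. It measured 199, 268 and 165 FPKM in sham and 280, 239 and 186 FPKM in I/R, with wide overlap. The means were 211 ± 52.0 and 235 ± 47.2 FPKM (SD, n = 3 each), and the log2 fold change was 0.16 (SE 0.28, adjusted p = 0.674, limma). The direction turned after median centring (−0.084), after quantile normalization (−0.80) and after rescaling without the mitochondrial mRNAs (−0.62), none of them past the threshold. Angptl4 (ENSRNOG00000007545), a secreted inhibitor of Lpl, measured 6.14, 19.2 and 17.1 FPKM in sham and 6.80, 6.01 and 13 FPKM in I/R. Sham replicate 1 was as low as the lower I/R samples, and the groups overlapped. The means were 14.2 ± 7.04 and 8.61 ± 3.85 FPKM (SD, n = 3 each), with a log2 fold change of −0.64 (SE 0.44, adjusted p = 0.293, limma). Angptl4 was called lower without sham replicate 1 (−1.15, adjusted p = 0.0345) and after rescaling without the mitochondrial mRNAs (−1.41, adjusted p = 0.0300).

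Fabp4 (ENSRNOG00000010805) had the highest level of the 10 genes in both groups. It measured 541, 1329 and 742 FPKM in sham and 255, 566 and 496 FPKM in I/R, and I/R replicate 2 lay above sham replicate 1. The means were 871 ± 409 and 439 ± 163 FPKM (SD, n = 3 each). The log2 fold change was −0.96 (SE 0.40, adjusted p = 0.0905, limma; p = 0.2, exact permutation test). Each I/R sample was below the sham sample of the same number, and with the replicate block Fabp4 was called lower (adjusted p = 0.00952). It was also called lower without sham replicate 1 (−1.26, adjusted p = 0.0364), after quantile normalization (−2.20, adjusted p = 0.0322) and after rescaling without the mitochondrial mRNAs (−1.75, adjusted p = 0.00736). The difference was smaller without sham replicate 2 (−0.61, adjusted p = 0.305) and without I/R replicate 1 (−0.61, adjusted p = 0.255).

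Heart muscle has a fatty acid carrier of its own, Fabp3, and this gene moved the other way. Fabp3 measured 373, 191 and 127 FPKM in sham and 1820, 1210 and 1060 FPKM in I/R, a log2 fold change of 2.67 (SE 0.39, adjusted p = 0.00308, limma). The cardiomyocyte markers tested had a median log2 fold change of 2.37, with 7 of 8 called higher. The part of cardiomyocyte RNA in the rise of Fabp3 was not tested. The log2 ratio of Fabp4 to Fabp3, which multiplying a library by a factor does not change apart from the added 0.1, was 0.54, 2.80 and 2.54 in the sham samples and −2.83, −1.10 and −1.10 in the I/R samples. Fabp4 was thus the more abundant of the pair in every sham sample and Fabp3 in every I/R sample. The difference was −3.64 (p = 0.1, exact permutation test, the smallest possible, and 0.367 adjusted over 11 ratios). Under both scalings at which Fabp4 was called lower, some markers of cells known to make it were called lower as well. After quantile normalization these were 5 of 8 for endothelial cells and 2 of 8 for macrophages, against 1559 of all 10942 genes tested. Without the mitochondrial mRNAs they were 3 of 8 and 2 of 8, against 2857 of 10942. Of 7 fibroblast markers, 2 were called lower under each of these scalings. Of 2 red blood cell markers, 1 was lower after quantile normalization and 0 without the mitochondrial mRNAs. No cardiomyocyte or neutrophil marker was called lower under either. With the replicate block, where Fabp4 was called lower too, 0 endothelial markers were lower and 1 was higher. Of the macrophage markers, 1 was higher and 2 lower there, as in the fit without the block. The part of these cells in the result was not tested.

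Other ratios within a sample compared members with their partners. The log2 ratio of Plin5 to Pnpla2, the lipase it holds back, was −4.25, −4.22 and −4.29 in sham and −2.10, −2.97 and −3.30 in I/R. The sham samples lay almost on 1 value, and every I/R sample was higher. The difference was 1.46 (p = 0.1, exact permutation test, 0.367 adjusted over 11 ratios). Between the lipases, the log2 ratio of Lipe to Pnpla2 was −1.75, −1.06 and −0.83 in sham and −2.80, −1.97 and −1.81 in I/R. Lipe was the scarcer in every sample, and the more so in each I/R sample than in any sham sample, by a difference of −0.98 (p = 0.1, exact permutation test, 0.367 adjusted). The groups overlapped in the other 8 ratios. They included Dgat2 to Dgat1 (difference 1.09, p = 0.3), Plin2 to Plin5 (−0.67, p = 0.4) and Angptl4 to Lpl (−0.80, p = 0.2, all by exact permutation test). For Pnpla2's activator Abhd5 and its inhibitor G0s2 the differences against Pnpla2 were −0.25 and 0.46 (p = 0.7 for each, exact permutation test). For Gpihbp1, the endothelial protein that carries Lpl to the capillary wall, the difference against Lpl was −0.26 (p = 1.0, exact permutation test). The ratios of Plin1 to Plin2 and of Adipoq to Plin1 rest on values listed at 0 (differences −0.48 and 0.67, p = 0.6 and 0.4, exact permutation test).

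Adipoq (ENSRNOG00000001821), the hormone adiponectin of fat cells, measured 0.143, 0.0675 and 0 FPKM in sham and 0, 1.72 and 0.235 FPKM in I/R. I/R replicate 2 was 7.32 times the next highest sample. For Plin1 that factor was 30.4. The other fat cell transcripts named next, apart from Thrsp and the tested markers, were chosen after their values were seen. Retn, the hormone resistin, was at 0 in every sample but I/R replicates 2 and 3 (0.685 and 0.162 FPKM). Cidec, which fuses droplets into the single large one of a fat cell, measured 0.0370, 0.0314 and 0 FPKM in sham and 0.0106, 0.436 and 0.0420 FPKM in I/R. Car3, a carbonic anhydrase of fat, measured 0, 0.00994 and 0.0413 FPKM in sham and 0.0134, 2.40 and 0.386 FPKM in I/R. Thrsp, a regulator of fatty acid synthesis, reached 4.31 FPKM in I/R replicate 2 and at most 0.227 FPKM in the other 5 samples. I/R replicate 2 was the highest sample for 7 of the 14 fat cell transcripts listed (Adipoq, Plin1 and 12 markers). Without I/R replicate 2 the members called were again 3 higher and 0 lower.

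**Figure D3:**
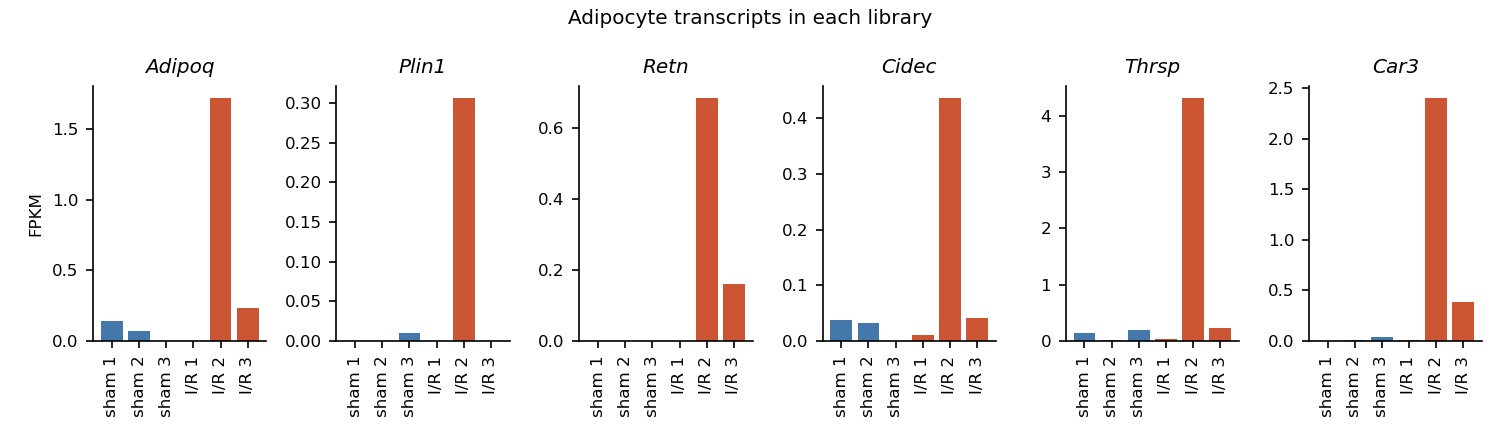
FPKM (vertical axes from 0, a separate scale for each gene) of 6 fat cell transcripts in each of the 3 sham (blue) and 3 I/R (red) samples. I/R replicate 2 is the highest bar in each panel, by 4.24 times (Retn) to 30.4 times (Plin1) over the next sample. The panels were picked with the values known, from the 14 transcripts listed, of which 7 were highest in I/R replicate 2.

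The defining markers of fat cells were near 0 in most samples. Lep, the hormone leptin, stayed at or below 0.098 FPKM and Acvr1c was at 0 in all samples. Of the 14 transcripts, 10 had a mean below 0.5 FPKM. Of the 4 adipocyte markers tested, 0 passed in either direction in limma, and 1 (Aqp7) had an unadjusted p under 0.05. Aqp7, the glycerol channel, had means of 9.11 ± 4.44 and 19.7 ± 12.7 FPKM (SD, n = 3 each; log2 fold change 1.02, adjusted p = 0.111, limma), and was called higher with the replicate block (adjusted p = 0.0398). Cfd, the protease adipsin, measured 10.1 ± 1.24 and 8.81 ± 2.66 FPKM (SD, n = 3 each; log2 fold change −0.23, adjusted p = 0.540, limma). Pparg, the receptor that drives fat cell formation, measured 4.32 ± 1.18 and 4.71 ± 1.72 FPKM (SD, n = 3 each; log2 fold change 0.10, adjusted p = 0.821, limma). Thrsp had a log2 fold change of 1.59 (SE 1.10, adjusted p = 0.287, limma), carried by I/R replicate 2. The summed level of the 12 markers was 18.8 to 28.7 FPKM in sham and 25.2 to 43.7 FPKM in I/R. Among the brown fat markers, 1 of 3 tested was called higher (Ppargc1a), Ucp1 stayed at or below 0.122 FPKM and Elovl3 was at 0 in all samples (summed level 22.1 to 47.7 FPKM in sham and 40.8 to 71.9 FPKM in I/R).

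By mean level within the sham group the order was Fabp4, Lpl, Pnpla2, Lipe, Angptl4, Plin2, Plin5, Dgat2, Adipoq and Plin1. FPKM are per length, so levels of different genes can be set side by side. Ranges of neighbours overlapped between Lipe and Angptl4, Angptl4 and Plin2, Plin5 and Dgat2, and Adipoq and Plin1. In the I/R group the order was Fabp4, Lpl, Pnpla2, Plin2, Lipe, Plin5, Angptl4, Dgat2, Adipoq and Plin1. There the ranges overlapped between Fabp4 and Lpl, Plin2 and Lipe, Lipe and Plin5, Plin5 and Angptl4, and Adipoq and Plin1.

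The other genes of triglyceride handling were taken from fixed lists. Over 6 lists with 89 genes, 82 were listed in the table and 67 were tested. Of these, 23 (34.3%) were called higher and 4 (5.97%) lower, with a median log2 fold change of 0.52. For all genes tested, the background of each list below, the shares were 25.5% and 7.36% and the median 0.29. In the list of triglyceride synthesis, 8 of 16 genes were called higher and 1 lower (median 0.73). Agpat2, which adds the second fatty acid, went from 4.01 ± 1.56 to 13 ± 7.10 FPKM (log2 fold change 1.61, SE 0.39, adjusted p = 0.0135, limma). Acsl1, which activates fatty acids in the heart, went from 18.9 ± 4.26 to 52.6 ± 30.8 FPKM (1.34, SE 0.38, adjusted p = 0.0247, limma). Lpin3, a phosphatidate phosphatase, fell from 2.59 ± 1.37 to 0.851 ± 0.281 FPKM (−1.43, SE 0.38, adjusted p = 0.0179, limma). Dgat1, the other enzyme of the last step, rose from 4.29 ± 0.575 to 9.15 ± 3.54 FPKM (1.02, SE 0.28, adjusted p = 0.0219, limma). After rescaling without the mitochondrial mRNAs, 0 of the 16 genes were called higher and 3 lower (median −0.037), and Dgat2 among the members was still higher.

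In the list of droplet coat and structure genes, 3 of 13 were called higher and 1 lower (median 0.49). Fitm1 and Fitm2 encode proteins of the endoplasmic reticulum that partition triglyceride into new droplets, and Fitm1 is the form of muscle. Fitm1 measured 12.8, 3.79 and 4.24 FPKM in sham and 38.7, 22.4 and 30.7 FPKM in I/R. The groups did not overlap, and the log2 fold change was 2.32 (SE 0.43, adjusted p = 0.00530, limma). Fitm2 went from 5.51 ± 2.10 to 15.0 ± 4.08 FPKM (SD, n = 3 each; 1.47, SE 0.32, adjusted p = 0.00887, limma). Hilpda, a droplet protein that inhibits Pnpla2 and is known as a hypoxia-inducible gene, measured 0.850, 1.88 and 1.54 FPKM in sham and 2.99, 5.96 and 3.75 FPKM in I/R (1.52, SE 0.34, adjusted p = 0.00982, limma). The gene that fell was Hsd17b11, a droplet-associated dehydrogenase (−0.72, adjusted p = 0.0329, limma). Cidea, with the highest mean of this list over all 6 samples, had means of 23.3 ± 8.36 and 37.6 ± 11.2 FPKM (SD, n = 3 each; 0.70, adjusted p = 0.109, limma). After rescaling without the mitochondrial mRNAs only Fitm1 of this list was still called higher, and the median was −0.28.

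Among partners of lipolysis, 1 of 9 genes was called higher and 0 lower in limma, and 3 higher and 0 lower had an unadjusted p under 0.05 (median 0.48). With the replicate block 3 were called higher. The called gene was Prkaca, the catalytic subunit of protein kinase A, which phosphorylates Lipe and perilipins, with means of 6.08 ± 2.52 and 21.3 ± 7.65 FPKM (SD, n = 3 each; 1.81, SE 0.34, adjusted p = 0.00536, limma). Abhd5 was nearly level, at 3.34 ± 0.0197 and 3.48 ± 0.191 FPKM (SD, n = 3 each; 0.055, SE 0.20, adjusted p = 0.854, limma). G0s2 had means of 2.61 ± 1.27 and 4.84 ± 3.04 FPKM (SD, n = 3 each; 0.77, SE 0.46, adjusted p = 0.226, limma). Mgll, the lipase of the last step, had means of 32.4 ± 12.3 and 35.4 ± 6.85 FPKM (SD, n = 3 each; 0.18, adjusted p = 0.675, limma). In the list of Lpl handling and fatty acid uptake, 2 of 8 genes were called higher and 0 lower in limma, and 3 higher and 0 lower had an unadjusted p under 0.05 (median 0.19). Besides Fabp3, the called gene was Furin, a protease whose targets include Angptl4 and Lpl (5.05 ± 1.08 and 9.69 ± 1.09 FPKM; 0.94, SE 0.24, adjusted p = 0.0158, limma). Furin was not called after quantile normalization (0.47, adjusted p = 0.109) or without the mitochondrial mRNAs (0.17, adjusted p = 0.635), where 1 gene of the list was called higher and 1 and 2 lower in turn. Gpihbp1 had means of 43.3 ± 15.9 and 42.0 ± 17.9 FPKM (SD, n = 3 each; −0.092, SE 0.38, adjusted p = 0.873, limma). Apoc2, a cofactor of Lpl made mainly by the liver, was at 0 in all samples.

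**Figure D4:**
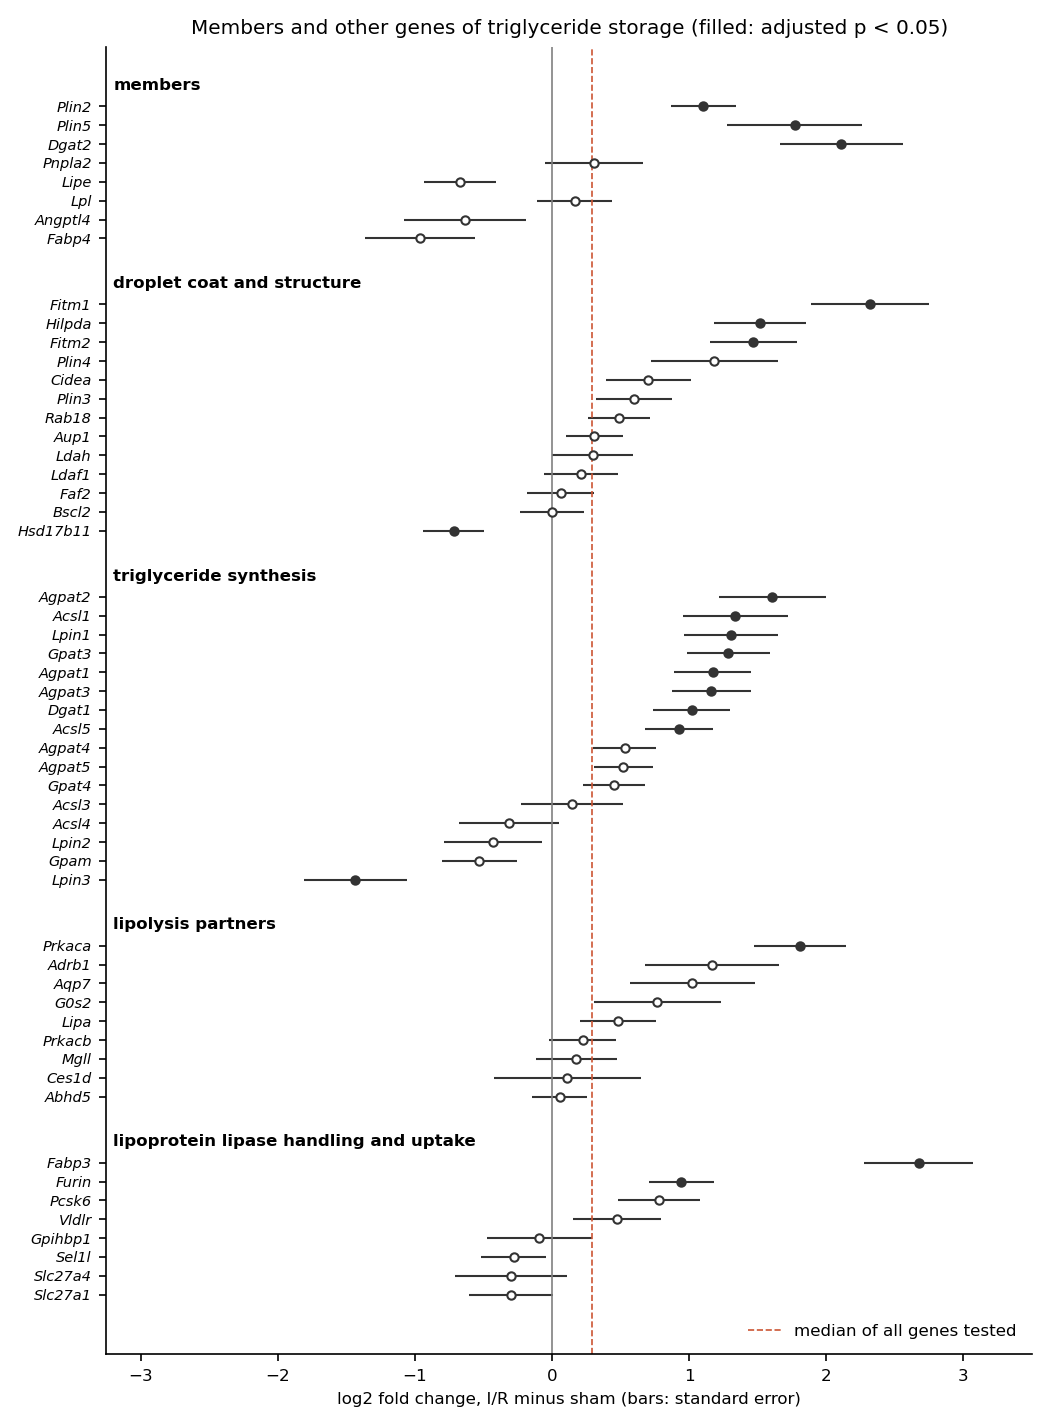
Log2 fold change, I/R minus sham (horizontal axis), with its standard error, for the 8 members tested and for the tested genes of 4 lists, ordered by size within each list. Filled points have an adjusted p under 0.05 (limma), and the dashed line is the median of all genes tested, 0.29, above which the 3 called members and most genes of triglyceride synthesis lie.

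The direction of a change depended on the scaling for 2 of the 8 members. Dgat2, Plin5 and Plin2 were above 0 and Lipe, Angptl4 and Fabp4 below 0 under each of the 5 scalings, while Lpl and Pnpla2 crossed 0. The scalings moved the median of all genes tested from 0.48 (rescaled to TPM) through 0.29 (as deposited), 0.042 (centred on the median) and −0.022 (quantile normalization) to −0.46 (rescaled without the mitochondrial mRNAs). Relative to that median, Dgat2, Plin5 and Plin2 were above it and Lpl, Lipe, Angptl4 and Fabp4 below it in each of the 5.

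**Figure D5:**
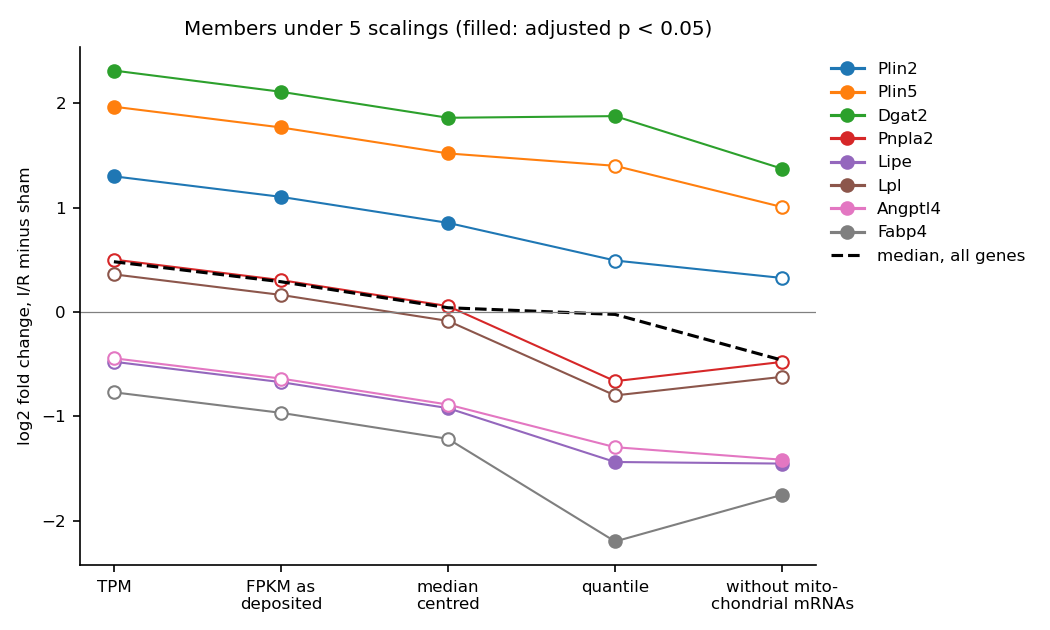
Log2 fold change, I/R minus sham (vertical axis), of the 8 members tested under 5 scalings of the samples (horizontal axis), with the median of all genes tested as a dashed line and an adjusted p under 0.05 (limma) as a filled point. Dgat2 is filled at all 5, Plin2 and Plin5 at 3, Lipe at 3, Fabp4 at 2 and Angptl4 at 1.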

How the data were processed

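Myocardial RNA of 3 sham and 3 I/R rats was analysed. The authors deposited 1 table of FPKM values for each gene and sample. The submitters' processing notes name STAR and HTSeq without versions or roles, and the libraries were stranded, from total RNA. The genome build, the annotation and the total the FPKM were divided by are not given in the sources used here, so the absolute depth is unknown, and relative depth was taken from the steps of low values. Genes with close paralogs are uncertain, since how shared reads were counted is not stated.

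Columns were matched to samples by name. Of 30452 rows, 7092 had no symbol. Rows with the same symbol were summed, leaving 28293 genes, and 3 list genes were found under another name that RefSeq lists for them (Ldaf1 and Car3 under an older symbol, Plin3 under the name of a genomic clone). Log2(FPKM + 0.1) of the 10942 genes whose mean reached 0.5 FPKM was fitted with limma 3.58.1 (lmFit, eBayes with an intensity trend) in R 4.3.3, with Benjamini-Hochberg adjustment over all of them and a threshold of 0.05. The fit was checked on simulated data. Ratios within a sample were compared by a two-sided exact permutation test and adjusted over 11 pairs. Genes listed at 0 in several samples were given per sample, without a group mean or a fold between the groups. For some of them the highest sample was set against the next highest.

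The members and lists were chosen with earlier results of these data known. Besides the members, the text names in each of the 6 lists of lipid genes (triglyceride synthesis, droplet coat and structure, lipolysis partners, Lpl handling and uptake, lipid transcription factors, other PPAR targets) the 3 called genes with the largest change and the gene with the highest mean over all samples, together with the partners in the ratios and the adipocyte markers tested. Genes named outside this rule are Plin3, Plin4, Hsd17b11, Nr1h3, Lep, Retn, Cidec, Car3, Acvr1c, Apoc2, Ucp1 and Elovl3, chosen after their values were seen. Some genes of the lists are not reported singly here.

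Deviations from the group means correlated across genes, between samples with the same number, at 0.203, 0.117 and 0.118 for numbers 1 to 3. Sham replicates 1 and 2 correlated best with the I/R sample of their own number, but sham replicate 3 correlated best with I/R replicate 2. The study's methods divide the rats at random and describe no pairs. Treating the replicate numbers as pairs, in a second fit with a replicate block, was therefore run only as an alternative. The other alternatives were pseudocounts of 1 and 0.01, no filter or a mean FPKM of at least 5, rescaling to TPM, median centring, quantile normalization, rescaling without the 13 mitochondrial mRNAs, limma without the trend, the highest row of each symbol, an adjusted p under 0.01 and leaving out each sample in turn. Promoters came from RefSeq (GRCr8). Those of Fabp4, Lpl, Lipe and Dgat2 were not analysed here.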

Additional observations from a re-analysis of the deposited data

How the results depend on the processing

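Dgat2, Plin5 and Plin2 stayed above 0 under every alternative run. The members called were 3 higher and 0 lower as reported. They were 1 higher and 2 lower after quantile normalization, and 1 higher and 3 lower after rescaling without the mitochondrial mRNAs. One was called lower at a mean FPKM of at least 5 and 1 after centring on the median, and 2 with the replicate block (Fabp4 and Lipe), which changed no other member's call. With each sample left out, 2 to 3 members were called higher and 0 to 2 lower, the 2 without sham replicate 1. The median log2 fold change of the members, 0.24 as reported, was −0.73 after quantile normalization and −0.55 after rescaling without the mitochondrial mRNAs. It was −0.013 after median centring, −0.042 without sham replicate 3 and 0.064 without I/R replicate 1. Of the other lipid genes, 23 were called higher and 4 lower as reported. These were 13 and 7 after quantile normalization, 8 and 10 after rescaling without the mitochondrial mRNAs, and 11 and 1 at an adjusted p under 0.01. Those lower were 2 with the filter at a mean of 5 FPKM and 7 after centring on the median. With each sample left out, 13 to 24 were higher, the 13 without sham replicate 3, and 2 to 4 lower, the 2 without sham replicate 2. Of all genes, 2790 were higher and 805 lower as reported. Those higher were 1441 after quantile normalization, 793 after rescaling without the mitochondrial mRNAs, 1185 at an adjusted p under 0.01 and 1528 to 2557 with each sample left out, fewest without sham replicate 3. Those lower were 166 at a mean FPKM of at least 5, 504 rescaled to TPM, 1554 after median centring, 1559 after quantile normalization, 2857 after rescaling without the mitochondrial mRNAs, 211 at an adjusted p under 0.01 and 309 to 881 with each sample left out, 309 without sham replicate 2 and 359 without sham replicate 3. The log2 fold change of Lpl turned to −0.084 after median centring, −0.80 after quantile normalization and −0.62 after rescaling without the mitochondrial mRNAs. That of Pnpla2 turned to −0.66 after quantile normalization and −0.48 after rescaling without the mitochondrial mRNAs, and ran from −0.088 to 0.57 with each sample left out. The ratio of Plin1 to Plin2 turned to 0.21 with a pseudocount of 0.01. With each sample left out, the difference ran from −0.068 to 1.21 for G0s2 to Pnpla2, from −0.52 to 0.14 for Abhd5 to Pnpla2 and from −0.55 to 0.29 for Gpihbp1 to Lpl. The cause was not tested for any of these. Fewer genes or samples enter a fit at a mean FPKM of at least 5 or with a sample left out. The depth of FPKM is unknown, and values near that of 1 fragment, such as that of Plin1 in sham replicate 3, cannot be told apart from counting noise.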

Other observations

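Of 10 lipid transcription factors and coactivators tested, 3 were called higher and 1 lower (median log2 fold change 0.26). For all genes tested the shares were 25.5% and 7.36% and the median 0.29. Cebpb, an early factor of fat cell formation that also acts in the acute response of many tissues, measured 23.7, 6.85 and 3.16 FPKM in sham and 126, 91.5 and 93.1 FPKM in I/R, without overlap (log2 fold change 3.65, standard error 0.58, adjusted p = 0.00350, limma). Ppargc1a, a coactivator of oxidative metabolism, went from 0.812 ± 0.243 to 3.12 ± 0.599 FPKM (SD, n = 3 each; 1.84, standard error 0.28, adjusted p = 0.00318, limma). Ppard, the PPAR found in most tissues, went from 5.23 ± 2.10 to 14.9 ± 2.54 FPKM (SD, n = 3 each; 1.57, standard error 0.33, adjusted p = 0.00787, limma). Each of these 3 was called higher under each of the 5 scalings. The gene that fell was Nr1h3, which encodes the liver X receptor alpha (−1.09, adjusted p = 0.0111, limma).

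Of 11 other target genes of the PPARs in the heart, 6 were called higher (median log2 fold change 1.38). Acadm, the medium-chain acyl-CoA dehydrogenase, measured 20.1, 16.2 and 14.3 FPKM in sham and 185, 66.6 and 55.8 FPKM in I/R (2.40, standard error 0.41, adjusted p = 0.00424, limma). Hadha, a subunit of the mitochondrial trifunctional protein, went from 47.7 ± 18.7 to 166 ± 77.0 FPKM (SD, n = 3 each; 1.77, standard error 0.37, adjusted p = 0.00800, limma). Ucp2, with the highest mean of this list over all 6 samples, measured 62.1 ± 21.2 and 161 ± 13.7 FPKM (SD, n = 3 each; 1.43, standard error 0.30, adjusted p = 0.00755, limma). After quantile normalization 1 of the 11 was called higher.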
